A study of Sus scrofa with 4 samples.

Results

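The genes described here are the keratins, the claudins and 10 further genes of epithelial adhesion, tight junctions and epithelial gene control, measured by bulk RNA sequencing of sorted pig lung cells. They were chosen by name alone: every gene whose symbol is KRT or CLDN followed by a number, without KRT5, KRT15, CLDN5 and CLDN18, together with EPCAM, CDH1, ESRP1, ESRP2, GRHL1, GRHL2, ELF3, OCLN, TJP3 and NKX2-1. This gave 62 of the 29263 genes in the count tables, of which 35 were keratins and 17 were claudins. All cells came from lungs of pigs with the genotype LGR5-H2B-GFP knock-in, so that cells transcribing LGR5, a receptor for R-spondins, carry a histone tagged with green fluorescent protein. Both groups carry the knock-in, and no group without it is compared. Lung tissue was digested to single cells, dead cells were excluded with propidium iodide, and sorting by fluorescence gave the groups GFP-HI and GFP-NEG, with 2 biological replicates of each. Antibodies against EPCAM and NGFR are named in the protocol, but whether they gated these libraries is not stated, and adult stage is stated only in the name of the authors' comparison table.

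Keratins are the intermediate filament proteins of epithelial cells, and each filament is built from a type I chain paired with a type II chain. KRT8 and KRT18 pair in simple epithelia such as the alveolar and airway lining, KRT5 and KRT14 pair in basal cells, and a further large set of keratins is known from hair and its root sheath. Claudins are the membrane proteins that form tight junction strands between neighbouring cells, some of which seal the space between cells while others form channels for ions. EPCAM and CDH1 (E-cadherin) are epithelial adhesion proteins, OCLN and TJP3 are a membrane protein and a scaffold of tight junctions, GRHL1, GRHL2 and ELF3 are transcription factors that maintain epithelial genes, ESRP1 and ESRP2 direct epithelial splicing, and NKX2-1 is the transcription factor of lung epithelial identity.

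Depth and sorting were checked first. The GFP-HI libraries held 24200550 and 24689986 counts and the GFP-NEG libraries 6292253 and 7045652 counts, so GFP-HI was on average 3.67 times as deep. LGR5 was at 146 and 152 CPM (read counts scaled to library size by TMM) in GFP-HI and at 1.55 and 0.767 CPM for GFP-NEG, and its log2 fold change (log2FC, GFP-HI over GFP-NEG) was 7.03 ± 0.72 (SE). The summed level of 6 fibroblast markers (PDGFRA, COL1A1, COL1A2, LUM, DCN and FBLN1) was 62846 and 55091 CPM for GFP-HI, against 19659 and 6766 CPM for GFP-NEG. More genes had at least 1 count in the shallower GFP-NEG libraries (24120 and 25985) than in GFP-HI (18752 and 18392). Odorant receptor genes, which are not known as lung genes, give the size of a value near nothing: 4.76% and 1.90% of them had counts in the GFP-HI libraries, against 54.3% and 86.7% in the GFP-NEG libraries. The 95th percentile of these genes was 0 CPM in both GFP-HI libraries and highest, at 4.89 CPM, in GFP-NEG replicate 2. CPM is not scaled by gene length, so setting these genes beside others is approximate; 4.89 CPM is called the odorant receptor limit below.

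**Figure D1:**
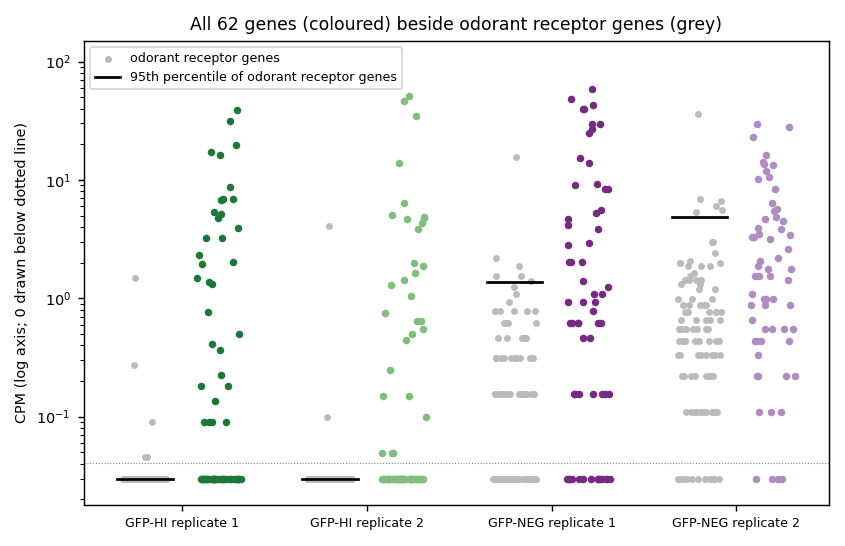
Level in CPM (log axis, 0 drawn below the dotted line) of all 62 genes (coloured points) beside the odorant receptor genes (grey points) in each of the 4 libraries; the black bar is the 95th percentile of the odorant receptor genes. The bar lies at 0 in both GFP-HI libraries, higher in GFP-NEG replicate 1 and highest, at 4.89 CPM, in GFP-NEG replicate 2.

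Of the 62 genes, 17 were called lower in GFP-HI and none was called higher, while 29 had too few counts to be tested. A gene was called where its adjusted p in edgeR's quasi-likelihood test was under 0.05. The filter on low counts kept 33 genes, of which 17 fell and 0 rose. Over all 19682 genes tested, 27.6% were called lower and 8.35% higher. The median log2FC was -2.12 over the 33 genes and -0.25 over all genes tested. The 33 are not a neutral sample of the 62: 10 of them had under 10 counts in each GFP-HI library and so passed only through GFP-NEG, and 9 of these 10 fell. Among the other 23, which had 10 counts or more in a GFP-HI library, 8 fell, and 11.3% of all tested genes with such counts were called lower and 10.4% higher. The 23 are not free of such selection: KRT36, which fell, had 0 and 11 counts in GFP-HI and passed the filter on GFP-NEG counts. In 12 genes both libraries of a group lay above the odorant receptor limit: CDH1, OCLN, CLDN1, CLDN3, CLDN4, CLDN10, CLDN11, CLDN15, KRT8, KRT10, KRT14 and ELF3. This set, too, was shaped by GFP-NEG: 7 of the 12 were above the limit in both GFP-NEG libraries but not in both GFP-HI libraries, and 6 of these 7 fell, against 1 (OCLN) of the 5 above it in both GFP-HI libraries. Of all tested genes above the limit in both libraries of a group, 12.3% were called lower and 13.7% higher. Taking instead the genes whose mean over all 4 libraries exceeded the limit, a choice added after the data were seen, gave the same 12 genes and ESRP2, of which 7 fell and 0 rose. Of all tested genes with such a mean, 11.6% were called lower and 13.6% higher. In bulk libraries, fewer epithelial cells and less RNA in each epithelial cell cannot be told apart.

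The count of falling genes changed more with a library left out than with the scaling. Such a fit leaves a lone library in a group, and the share of all genes called lower dropped too. A call lost there therefore need not show that the gene rested on that library. It was 17 with RLE scaling, 16 with library-size scaling, 18 with no filter, 12 at 1 CPM in 2 libraries, 17 under DESeq2 and 14 with the replicate block, where 27.6%, 29.1%, 22.9%, 25.1%, 26.7% and 24.4% of all genes tested were lower. With GFP-HI thinned to the GFP-NEG depth it was 11 of 24, against 21.7% of all genes. Of the 17 genes, only 9 were still tested there. All 9 kept their calls, and ESRP1 and TJP3 were new. It was 6 without GFP-HI replicate 1, 4 without GFP-HI replicate 2, 7 without GFP-NEG replicate 1 and 7 without GFP-NEG replicate 2, where 13.2%, 12%, 23.3% and 8.98% of all genes were lower. The number that rose was 0 in each of these settings except without GFP-NEG replicate 1, where CLDN10 rose. The share of all genes called higher was 8.03% with RLE scaling, 4.51% with library-size scaling, 5.97% with no filter, 7.58% at 1 CPM, 6.91% under DESeq2, 8.67% with the block and 6.88% with thinning. With 1 library left out, in the same order, it was 5.23%, 3.03%, 7.62% and 1.23%.

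**Figure D2:**
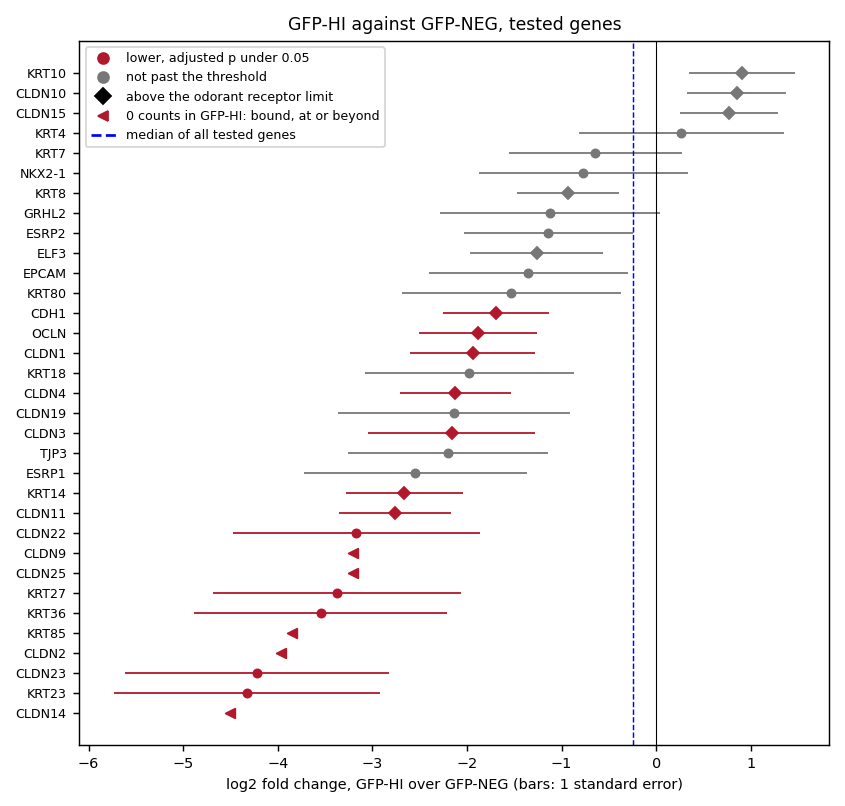
Log2 fold change of GFP-HI over GFP-NEG for the 33 tested genes, with bars of 1 standard error; red marks genes called lower and grey genes not past the threshold, diamonds mark genes above the odorant receptor limit, triangles show the bound for genes with 0 counts in GFP-HI, and the dashed line is the median of all genes tested (-0.25). The 17 red genes all lie left of -1.5, and KRT10, CLDN10, CLDN15 and KRT4 are the only genes right of 0.

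The 2 adhesion genes had lower levels in both GFP-HI libraries than in either GFP-NEG library. CDH1 was at 16.4 and 4.36 CPM in GFP-HI and at 39.4 and 27.7 CPM in GFP-NEG. It fell by 1.69 ± 0.56 (SE) on the log2 scale, with an adjusted p of 0.0095, and its GFP-HI replicates differed 3.75-fold. The call was lost without GFP-HI replicate 2 (adjusted p of 0.31) and without GFP-NEG replicate 1 (0.13). EPCAM was at 2.04 and 1.64 CPM in GFP-HI and at 5.59 and 3.84 CPM in GFP-NEG, values that rest on 33 to 45 counts in each library. Its log2FC of -1.35 ± 1.05 (SE) was not past the threshold (adjusted p of 0.34), and its GFP-NEG replicate 2 value was under the odorant receptor limit.

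Of the tight junction genes that are not claudins, OCLN fell and TJP3 did not pass the threshold. OCLN, the occludin gene, was at 6.75 and 5.06 CPM in GFP-HI and at 29.5 and 14.1 CPM in GFP-NEG. The difference was 3.68-fold, a log2FC of -1.88 ± 0.62 (SE) with an adjusted p of 0.0095. The groups did not overlap, but the call was lost without GFP-HI replicate 1, GFP-HI replicate 2 or GFP-NEG replicate 1 (adjusted p of 0.073, 0.12 and 0.26). TJP3 had 33 and 21 counts in the deeper GFP-HI libraries against 54 and 31, means of 1.27 and 5.89 CPM, with a log2FC of -2.20 ± 1.05 (SE) and an adjusted p of 0.091. It passed the threshold under DESeq2 (0.044), with GFP-HI thinned to the GFP-NEG depth (0.044) and without GFP-NEG replicate 2 (0.046).

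Of 17 claudins, 13 were tested and 10 fell, and CLDN10, CLDN15 and CLDN19 did not pass the threshold. Of the 13, 7 had under 10 counts in each GFP-HI library and passed the filter only through GFP-NEG, and 6 of these fell. Of the other 6, 4 fell, where 11.3% of all tested genes with 10 counts or more in a GFP-HI library were lower. The sealing claudins CLDN1, CLDN3 and CLDN11 and the barrier claudin CLDN4 fell from levels above the odorant receptor limit. CLDN4 had the closest GFP-NEG replicates of the group, at 29.5 and 29.6 CPM, against 8.74 and 4.81 CPM in GFP-HI. The fall was 4.35-fold (log2FC -2.12 ± 0.59 SE, adjusted p of 0.0015), and was lost only without GFP-HI replicate 2 (adjusted p of 0.088) among the 11 alternatives run. CLDN3 was at 3.26 and 0.644 CPM against 9.16 and 8.44 CPM, with a log2FC of -2.16 ± 0.89 (SE) and an adjusted p of 0.042. That p lies close to the threshold: it was 0.055 with a stricter filter on low counts, 0.30 without GFP-HI replicate 2, and 0.12 and 0.10 without GFP-NEG replicate 1 and 2.

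CLDN1 had 72 and 128 counts in GFP-HI, against 161 and 109 counts for GFP-NEG, or 4.80 ± 2.18 against 18.5 ± 9.23 CPM (SD, n = 2). It fell by 1.94 ± 0.66 (SE) in log2 units (adjusted p of 0.012), and the call was lost without GFP-HI replicate 1 (0.17) or GFP-NEG replicate 1 (0.26). CLDN11, known from myelin and the testis, had the largest fall of the 12 genes above the limit. Its GFP-HI values of 5.39 and 4.71 CPM lay close together, whereas GFP-NEG held 58.7 and 10.1 CPM. The log2FC of -2.76 ± 0.60 (SE, adjusted p of 6.5e-05) depended in size on GFP-NEG replicate 1: without that library it was -0.95 and not past the threshold (adjusted p of 0.43).

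CLDN10 and CLDN15, both known to form ion channels in tight junctions, had positive log2FC values that did not pass the threshold. CLDN15 was at 38.8 and 46.1 CPM in GFP-HI and at 26.9 and 23.0 CPM in GFP-NEG. Both GFP-HI values exceeded both GFP-NEG values, a log2FC of 0.77 ± 0.52 (SE, adjusted p of 0.26). Such an order, with both GFP-HI libraries above both GFP-NEG libraries, was found for 27.7% of all genes tested and for 2 of the 33, CLDN15 and KRT10. CLDN10 was at 31.4 and 51.0 CPM in GFP-HI, and its GFP-NEG libraries lay on either side, at 39.4 and 6.36 CPM. Its log2FC was 0.85 ± 0.52 (SE, adjusted p of 0.21), and 2.74 without GFP-NEG replicate 1, where it passed the threshold (adjusted p of 0.0050). The difference between CLDN10 or CLDN15 and the falling claudins was not tested.

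The other 6 claudins that fell had 0 to 5 counts in each GFP-HI library and GFP-NEG means of 3.24 CPM or less. CLDN14, CLDN2, CLDN9 and CLDN25 had 0 counts in both GFP-HI libraries, where a count of 0 allows up to 0.136 and 0.149 CPM (3 counts; counting error only). CLDN14, a sealing claudin of the inner ear and kidney, had 5 and 52 counts in GFP-NEG, and CLDN2, a channel for cations, had 6 and 32. Measured against the floor of 3 counts per library, CLDN14 was at least 22.8-fold lower in GFP-HI, CLDN2 at least 15.6-fold, and CLDN9 and CLDN25 at least 9.21-fold. From GFP-NEG replicate 1 alone the bounds were 5.45-fold for CLDN14 and 6.55-fold for CLDN2, and neither gene passed the filter without GFP-NEG replicate 2. CLDN9 and CLDN25 held the same counts, 7 and 14, in the GFP-NEG libraries. The CLDN14 call held in each of the 8 alternatives that tested the gene, whereas the calls of CLDN2, CLDN9 and CLDN25 were lost without GFP-HI replicate 1 or 2 (adjusted p of 0.055 to 0.11). CLDN23 had 5 and 0 counts in GFP-HI, against 9 and 29 counts for GFP-NEG (log2FC -4.22, adjusted p of 0.0096, and 0.065 with the replicate block). It also lost its call without GFP-HI replicate 1, GFP-HI replicate 2 or GFP-NEG replicate 1 (adjusted p of 0.050, 0.22 and 0.070). CLDN22 had 4 and 0 counts against 6 and 8 (log2FC -3.17, adjusted p of 0.043, and 0.23 with the block), and also lost its call under library-size scaling, DESeq2 and no filter (0.053, 0.25 and 0.24). None of these 6 lay above the odorant receptor limit in both GFP-NEG libraries. CLDN19, the last tested claudin, ranged from 0.149 to 2.02 CPM and did not pass the threshold (log2FC -2.14, adjusted p of 0.17).

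**Figure D3:**
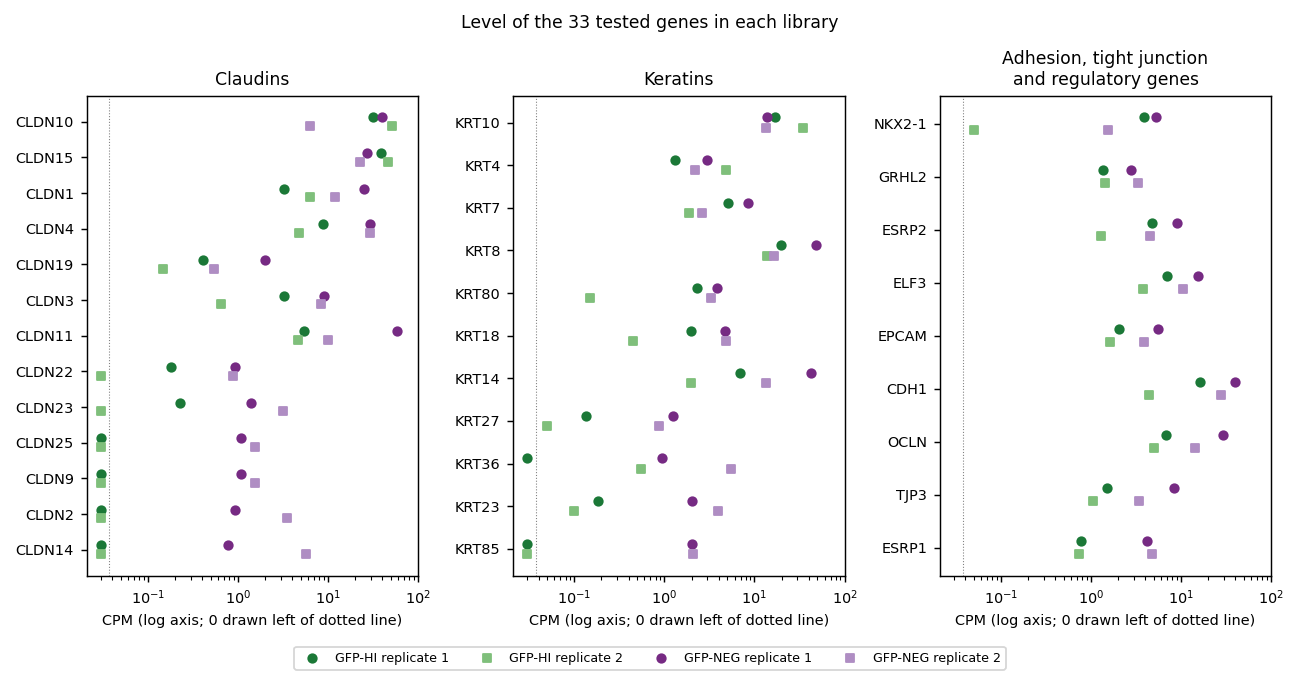
Level in CPM (log axis, 0 drawn left of the dotted line) of the 33 tested genes in each library, as claudins, keratins and the other genes, ordered by log2FC; green is GFP-HI, purple GFP-NEG, circles replicate 1 and squares replicate 2. In 25 of the 33 genes both green points lie left of both purple points; in CLDN15 and KRT10 they lie right of them.

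Both GFP-HI libraries were below both GFP-NEG libraries in 25 of the 33 tested genes, an order found for 42% of all genes tested. All 10 genes with under 10 counts in each GFP-HI library, which passed the filter on GFP-NEG counts, were among the 25, as was KRT36. Of the other 23, 15 had this order, as did 27.9% of all tested genes with 10 counts or more in a GFP-HI library. Taken within each replicate, 29 of the 33 were lower in GFP-HI in both, and the exceptions were CLDN10, CLDN15, KRT4 and KRT10. The 29 hold all 10 genes with under 10 counts in each GFP-HI library and 19 of the other 23. The share of all genes tested with this order was not computed, so the count has no background beside it.

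The 3 tested keratins of simple epithelium did not pass the threshold. KRT8 was at 19.8 and 13.9 CPM in GFP-HI and at 48.1 and 16.3 CPM in GFP-NEG, so that 3 libraries lay close together and GFP-NEG replicate 1 stood above them. Its log2FC was -0.94 ± 0.54 (SE, adjusted p of 0.18) and turned to 0.09 without GFP-NEG replicate 1. Its partner KRT18 was at 1.95 and 0.446 CPM in GFP-HI, against 4.66 and 4.82 CPM in GFP-NEG, with a log2FC of -1.97 ± 1.11 (SE, adjusted p of 0.16). The pair did not keep one ratio: KRT8 had 10.1 and 31.1 times the counts of KRT18 in the GFP-HI libraries, and 10.3 and 3.39 times in the GFP-NEG libraries. KRT7, a type II keratin of simple and glandular epithelia, was at 5.12 and 1.88 CPM against 8.38 and 2.63 CPM. Its log2FC of -0.64 (adjusted p of 0.63) was smaller than its standard error of 0.92 and turned to 0.46 without GFP-NEG replicate 1.

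Among keratins of stratified and basal epithelium, KRT14 fell, and KRT10, KRT4 and KRT80 did not pass the threshold. KRT14 was at 6.84 and 1.98 CPM in GFP-HI and at 42.7 and 13.5 CPM in GFP-NEG. The fall was 6.33-fold, a log2FC of -2.66 ± 0.62 (SE, adjusted p of 1.6e-04), and the call was lost without GFP-HI replicate 2 (0.078) or GFP-NEG replicate 1 (0.15). KRT5, its partner in basal cells and not one of the 62 genes, fell by 2.63 (adjusted p of 2.2e-04, and 0.067 without GFP-HI replicate 1). The ratio of KRT14 to KRT5 counts differed between replicates in both groups: it was 3.36 and 0.317 for GFP-HI replicates 1 and 2, against 1.45 and 0.621 for those of GFP-NEG. KRT10, a type I keratin of differentiated epidermis, was at 17.1 and 34.4 CPM in GFP-HI and at 13.8 and 13.6 CPM in GFP-NEG (log2FC 0.91 ± 0.56 SE, adjusted p of 0.21). KRT1, the type II partner of KRT10 in epidermis, had 0 counts in both GFP-HI libraries and 4 in each GFP-NEG library. KRT4, known from mucosal epithelia, was at 1.31 and 4.86 CPM against 2.95 and 2.19 CPM. Its log2FC was 0.27 ± 1.08 (SE), and -0.19 with library-size scaling. KRT80 differed 15.5-fold between the GFP-HI libraries (2.31 and 0.149 CPM) and was at 3.88 and 3.29 CPM in GFP-NEG, with a log2FC of -1.53 ± 1.16 (SE, adjusted p of 0.32).

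Hair and root sheath keratins were near 0 in GFP-HI. Of 18 such genes, 5 and 4 had any count in the GFP-HI libraries, against 9 and 16 in the GFP-NEG libraries. Their summed level was 0.770 and 1.74 CPM in GFP-HI, against 6.37 and 19.2 CPM in GFP-NEG. The same order held over all genes, with counts in 18752 and 18392 genes for GFP-HI, against 24120 and 25985 for GFP-NEG. It also held for the odorant receptor genes, with counts in 4.76% and 1.90% against 54.3% and 86.7%. The 3 that were tested all passed the filter on GFP-NEG counts and fell, where 27.6% of all genes tested were lower. None of the 3 lay above the odorant receptor limit in both GFP-NEG libraries. KRT85, a hair cortex keratin, had 0 counts in GFP-HI against 13 and 19 for GFP-NEG, at least 14.4-fold lower against the floor (adjusted p of 1.8e-04). KRT36 had 0 and 11 counts against 6 and 50 (log2FC -3.54, adjusted p of 0.026). KRT27 had 3 and 1 counts against 8 and 8 (-3.37, adjusted p of 0.031, and 0.21 with the replicate block). KRT23, a type I keratin placed in no group here, had 4 and 2 counts against 13 and 36 (-4.33, adjusted p of 0.0081). All 4 calls were lost under some alternatives. These were omission of GFP-HI replicate 1 or 2 for KRT85 (0.058 and 0.060) and for KRT23 (0.082 and 0.13), omission of GFP-NEG replicate 2 for KRT23 (0.27), omission of GFP-HI replicate 1 or GFP-NEG replicate 2 for KRT36 (0.27 and 0.74), and DESeq2 (0.15) or no filter (0.20) for KRT27.

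The 29 genes left untested were 24 keratins, 4 claudins and GRHL1, and their group means did not exceed 0.932 CPM. In all, 23 of the 62 genes had counts in GFP-NEG only (37.1%, against 23.4% of all 29263 genes), although GFP-NEG was the shallower group. KRT25, a root sheath keratin, was the single gene with counts in GFP-HI only (2 and 10). CLDN16, KRT12 and KRT72 had 0 counts in all 4 libraries.

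None of the transcription and splicing factors passed the threshold. ESRP1 had the largest log2FC of these genes and close replicates, at 0.770 and 0.744 CPM in GFP-HI and at 4.19 and 4.71 CPM in GFP-NEG. The difference was 5.83-fold (log2FC -2.54 ± 1.18 SE, adjusted p of 0.079), and it passed the threshold under DESeq2 (0.026) and with GFP-HI thinned (0.033). ESRP2 was at 4.80 and 1.29 CPM against 9.01 and 4.49 CPM, with 1 GFP-HI value above the lower GFP-NEG value (log2FC -1.14, adjusted p of 0.34). GRHL2 was at 1.36 and 1.44 CPM against 2.79 and 3.29 CPM (log2FC -1.12 ± 1.16 SE, adjusted p of 0.49). GRHL1 had 2 and 0 counts against 4 and 2 and was not tested. ELF3 was at 6.93 and 3.82 CPM against 15.4 and 10.5 CPM, with the groups apart but not past the threshold (log2FC -1.26 ± 0.70 SE, adjusted p of 0.16).

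NKX2-1 separated the GFP-HI replicates more than the groups. It had 86 counts (3.90 CPM) in GFP-HI replicate 1 and 1 count (0.0496 CPM) in GFP-HI replicate 2, against 34 and 14 counts (5.28 and 1.53 CPM) in GFP-NEG. Its log2FC was -0.77 ± 1.11 (SE, adjusted p of 0.63), -5.73 without GFP-HI replicate 1 and 0.26 without GFP-HI replicate 2. Among genes with counts in both GFP-HI libraries, CDH1, ESRP2, CLDN3, KRT18, KRT14 and KRT80 were also over 3-fold higher in GFP-HI replicate 1 than in replicate 2, whereas KRT4 was 3.70-fold and KRT10 2.01-fold higher in replicate 2. In all, 21 of 28 tested genes with counts in GFP-HI were higher in replicate 1, and in GFP-NEG 21 of 33 were. Among genes with counts in both libraries of the group, 10 in GFP-HI and 11 in GFP-NEG were at least 2-fold higher in replicate 1. The share of all genes tested that were higher in replicate 1 was not computed. CLDN18, an alveolar type 1 cell marker that is not one of the 62 genes, was at 26.1 CPM in GFP-HI replicate 1 and 3.32 CPM in replicate 2, and the summed alveolar type 1 markers were at 143 and 21.5 CPM. Their part in the difference between the GFP-HI replicates was not tested.

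**Figure D4:**
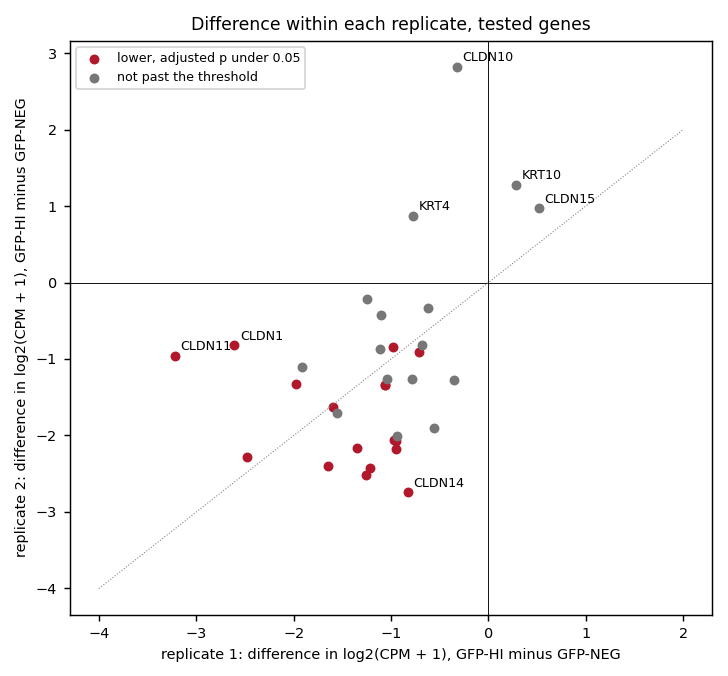
Difference in log2(CPM + 1) between GFP-HI and GFP-NEG within replicate 1 (horizontal axis) and within replicate 2 (vertical axis) for the 33 tested genes, red where called lower; the dotted line marks equal differences. Of the 33 genes, 29 lie at the lower left, CLDN15 and KRT10 lie in the upper right, and CLDN10 and KRT4 are lower in replicate 1 and higher in replicate 2. The 29 include 10 genes that passed the filter only through GFP-NEG, and the share over all genes tested was not computed.

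Other genes of epithelial junctions and identity were read from lists of 55 genes, of which 50 were in the tables and 48 were tested. Of these 48, 2 rose and 11 fell, with a median log2FC of -1.05. Both counts are smaller shares than the 8.35% higher and 27.6% lower of all genes tested. Junction scaffolds had a median of 0.54 over 15 genes, with 2 higher and 3 lower. CGNL1 (paracingulin), a junction scaffold, rose from 50.3 and 16.4 CPM to 217 and 213 CPM (log2FC 2.69 ± 0.61 SE, adjusted p of 1.2e-04, and 0.13 without GFP-NEG replicate 2). PARD3, a polarity scaffold, rose by 1.64 in log2 units (adjusted p of 0.011), but lost its call with library-size scaling (0.070), without either GFP-HI library (0.061 and 0.077) and without GFP-NEG replicate 2 (0.48). MARVELD3, NECTIN4 and F11R fell, with log2FC values of -4.44, -4.29 and -1.37 (adjusted p of 0.0061, 0.0088 and 0.028). MARVELD3 (2 and 1 counts) and NECTIN4 (3 and 2) had under 10 counts in each GFP-HI library, so they passed the filter only through GFP-NEG. The block ended the calls of MARVELD3 and NECTIN4 (0.073 and 0.056), as did leaving out either GFP-HI library or GFP-NEG replicate 1 (0.14 to 0.19 for MARVELD3, which also lost its call with no filter at 0.060, and 0.051 to 0.14 for NECTIN4). F11R lost its call under DESeq2 (0.061), with no filter (0.050) and without each of the 4 libraries (0.061 to 0.39).

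Desmosome genes had a median log2FC of -1.31 over 9 genes, with 2 lower and 0 higher. These were the plakophilins PKP1, with 0 counts in GFP-HI and at least 19.5-fold lower (12.0-fold from GFP-NEG replicate 1 alone), and PKP2 (-3.29, adjusted p of 0.028, 0.053 with the block, 0.057 with GFP-HI thinned, and 0.23 and 0.50 without GFP-HI or GFP-NEG replicate 2). Epithelial regulators had a median of -1.06 over 9 genes, of which OVOL1 (-4.39, adjusted p of 0.0074) and TP63 (-3.90, adjusted p of 0.0014) fell. PKP1 and OVOL1 (2 and 4 counts) had under 10 counts in each GFP-HI library, so they passed the filter only through GFP-NEG. The same holds for LAD1 (1 and 7 counts) and CBLC (8 and 1), named below. TP63, the master regulator of basal cells, was at 0.453 and 0.595 CPM in GFP-HI and at 7.61 and 8.22 CPM in GFP-NEG, and its call held in all 11 alternatives. Genes of the epithelial surface and trafficking had a median of -1.33 over 15 genes, with 4 lower and 0 higher, a share of falls close to the 27.6% of all genes tested. Among these were LAD1 (-4.69), CBLC (-3.78, adjusted p of 0.018, 0.057 with the block, and 0.055 to 0.40 with 1 library left out) and SPINT2 (-2.14). SPINT2, a protease inhibitor of epithelial surfaces, was at 26.8 and 14.6 CPM in GFP-HI and at 109 and 73.7 CPM in GFP-NEG (adjusted p of 4.0e-04, and 0.10 without GFP-HI replicate 2). OVOL1 lost its call without GFP-HI replicate 1, GFP-HI replicate 2 or GFP-NEG replicate 2 (adjusted p of 0.11, 0.078 and 0.35), and LAD1 without GFP-HI replicate 1 or GFP-NEG replicate 2 (0.066 and 0.11).

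Of 9 mesenchymal genes tested, 3 rose and 0 fell, with a median log2FC of 1.34, where 8.35% of all genes tested rose and 27.6% fell. SNAI1, a transcription factor known as a repressor of CDH1, had the single negative log2FC of the list (-0.45, adjusted p of 0.63), at 212 and 238 CPM in GFP-HI and at 342 and 273 CPM in GFP-NEG. TWIST2, a mesenchymal transcription factor, rose by 4.37 (adjusted p of 1.5e-07). ZEB1, a repressor of CDH1 and other epithelial genes, was at 196 and 228 CPM in GFP-HI and at 53.3 and 31.8 CPM in GFP-NEG (log2FC 2.32 ± 0.60 SE, adjusted p of 6.1e-04, and 0.16 without GFP-NEG replicate 2). CDH11, a mesenchymal cadherin, rose by 2.03 (adjusted p of 0.015), a call lost without GFP-HI replicate 1, GFP-HI replicate 2 or GFP-NEG replicate 2 (0.13, 0.084 and 0.59). VIM, the intermediate filament gene of mesenchymal cells, was at a mean of 3557 CPM for GFP-HI against 1536 CPM for GFP-NEG, and its log2FC of 1.21 did not pass the threshold (adjusted p of 0.40).

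Markers of several lung cell types were read from the same test, where 27.6% of all genes tested were lower and 8.35% higher. Of the epithelial markers, 2 of 5 alveolar type 2 genes fell (summed level of 131 and 270 CPM for GFP-HI against 430 and 176 CPM for GFP-NEG), 0 of 3 alveolar type 1 genes passed the threshold (143 and 21.5 CPM against 171 and 23.0 CPM), and 2 of 6 airway genes fell (140 and 173 CPM against 299 and 94.7 CPM). These summed epithelial levels overlapped between the groups. Single genes made up most of 2 of the sums in GFP-HI: SFTPC (81.9 and 170 CPM) for alveolar type 2, and SCGB1A1 (129 and 145 CPM) for airway. Both of these genes overlapped between the groups. The genes that fell, SFTPB, NAPSA, KRT5 and TP63, each had both GFP-HI libraries below both GFP-NEG libraries. All 5 endothelial markers fell (158 and 157 CPM against 1172 and 475 CPM), as did 4 of 6 immune markers (196 and 331 CPM against 1137 and 1976 CPM), and 4 of 6 fibroblast markers rose. Of 4 smooth muscle markers, 2 fell and 0 rose, with summed levels that overlapped (815 and 1737 CPM against 1972 and 250 CPM). Of the mesothelial markers, which matter because mesothelium also makes simple keratins, WT1 had 0 and 2 counts in GFP-HI, against 0 and 24 counts for GFP-NEG, and CALB2 had 0 against 2 and 5. The part of these cell types in the falls of keratins and claudins was not tested.

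The authors' deposited table holds 25 of the 62 genes, of which 7 are lower at an adjusted p under 0.05 while 0 are higher, where 11.2% of its 16250 genes are lower and 8.2% higher. The 7 in the authors' deposited table are CDH1, CLDN1, CLDN4, CLDN11, KRT14, OCLN and ESRP1, of which all but ESRP1 were also called here. Conversely, 8 of the 17 genes called lower here are in the authors' deposited table and 6 of those are lower there. CLDN3 and KRT36 are the other 2, with adjusted p of 0.058 and 0.074 in the authors' deposited table. ESRP1 stands in the authors' deposited table at -2.57 on the log2 scale (adjusted p of 0.046).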

How the data were processed

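Each library came with a table of whole-number counts per gene, deposited by the authors with no normalization. The submitters' processing notes name featureCounts, Subread 1.5.2 and DESeq2 1.37.6 without their roles. The name of the authors' comparison table carries an annotation version and no assembly name; the aligner, strand setting and filters are not given in the sources used here, so near-identical keratin genes and overlapping genes are uncertain. The authors' deposited comparison table holds counts identical to the single tables, log2 fold changes and adjusted p-values. Its 4 columns of normalized values were not used.

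All 29263 genes were fitted together with edgeR 4.0.16 in R 4.3.3: quasi-likelihood F test, TMM scaling, filterByExpr (19682 genes kept, 99.8% of counts), group as the only term, and Benjamini-Hochberg adjustment over all genes tested, with a threshold of 0.05. CPM values are computed here from the deposited counts; SDs and tests rest on 2 libraries a group, and a standard error is the log2 fold change divided by the square root of F. Prior degrees of freedom were infinite, so a gene's own scatter between replicates carried no weight in the quasi-likelihood dispersion. The standard errors therefore do not measure the replicate spread of that gene. One count equals 0.0453 to 0.0496 CPM in GFP-HI and 0.110 to 0.155 CPM in GFP-NEG. Alternatives were other scalings and filters, DESeq2 1.42.0, the replicate block, GFP-HI thinned at random to 6668952 counts, and leaving out each library, where the lone library is assumed to vary like the other group.

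Headings of the authors' table give the replicates as pig 1 and pig 2, which would pair the libraries of one animal, but 2 of these headings stand over values in the gene order of a library with the other label, so the pairing by animal is uncertain. Deviations from the group means correlated between same-numbered libraries with an r of 0.190 across genes. On simulated counts for 29263 genes (20019 tested), the test recovered 80.8% of 99 genes simulated with a log2 change of 4 and 9.28% of 97 with a change of 2, with 0 in the wrong direction. Few genes were changed in the simulation and 89 were called, whereas in the data 27.6% of all genes tested were lower and 8.35% higher. The adjusted threshold was therefore stricter in the simulation, and these shares do not give the recovery in the data.

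Named with values are the 10 genes given by symbol, KRT7, KRT8 and KRT18, and each keratin or claudin called or with a group mean of at least 2 CPM; KRT19 is not analysed here. From the other lists, at most 3 called genes in each direction are named. VIM, SNAI1, JUP, PPL, WT1, CALB2, KRT1, KRT25 and CLDN19 were singled out after their values were seen. Members, lists, roles and the odorant receptor limit were chosen with earlier results of these data known. No transcript lengths were used, so the odorant receptor limit and the count ratios of keratin pairs rest on values not scaled by length.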

Additional observations from a re-analysis of the deposited data

How the results depend on the processing

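Of the 17 genes called lower, 13 kept their calls in every alternative that used all 4 libraries and tested them. CLDN3, CLDN22, CLDN23 and KRT27 did not. CLDN14 kept its call in the 8 of 11 alternatives that tested it, but omission of GFP-NEG replicate 2 was not among these. Its level was 5.70 CPM in that library and 0.776 CPM in GFP-NEG replicate 1. Whether the CLDN14 call rests on GFP-NEG replicate 2 was therefore not tested. Leaving out 1 library gave 4 to 7 genes lower, and 0 to 1 higher (CLDN10). Thinning GFP-HI gave 11 lower of 24 tested: 9 of the 17, the others not being tested, with ESRP1 and TJP3. The odorant receptor limit, added after the data were seen, gave 7 of 12 (7 of 13 by the mean over all libraries). With the replicate block 14 genes were lower; it ended the calls of CLDN22, CLDN23 and KRT27 and of no other named keratin, claudin or junction gene of the 62. The median log2 fold change of the tested genes was -2.45 with library-size scaling, -2.89 with no filter, -1.95 at 1 CPM in 2 libraries, -1.87 with GFP-HI thinned, and -2.79 to -1.36 with 1 library left out. It was -2.12 also with the genes at 0 in GFP-HI set at their bound, but each bound still lay below this median, so the change could not move it. For the other epithelial genes, 1 was higher with library-size scaling and 4 with the block; leaving out 1 library gave 0 to 4 higher and 3 to 6 lower.

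Signs turned in genes not past the threshold in the reported test: KRT4 was at -0.19 with library-size scaling. With 1 library left out, log2 fold changes ranged from -0.88 to 1.05 for KRT4, from -1.43 to 0.46 for KRT7, from -1.55 to 0.093 for KRT8, from -5.73 to 0.41 for NKX2-1, from -0.98 to 0.69 for CLDN7 and from -2.54 to 2.21 for CLDN18, which passed the threshold without GFP-NEG replicate 1 (2.21, adjusted p of 0.042). The cause was not tested. Depth limits the claims for GFP-NEG, where 3 counts are worth 0.329 to 0.466 CPM.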

Other observations

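The tables give 2 further genes of these families only by identifier, and the gene name table provided pairs them with CLDN7 and KRT222. CLDN7, a claudin of lung and other epithelia, was at 8.20 and 9.52 CPM in GFP-HI and at 17.1 and 5.70 CPM in GFP-NEG. Its GFP-HI values lay between the GFP-NEG values, and its log2FC of -0.36 ± 0.67 (SE) was not past the threshold (adjusted p of 0.73, edgeR). For KRT222 the GFP-HI libraries held 0 and 4 counts, the GFP-NEG libraries 5 and 25. It was called lower (log2FC -4.08, adjusted p of 0.011), but not with the replicate block (0.076), under DESeq2 (0.053), with no filter (0.074), or without GFP-HI replicate 1, GFP-HI replicate 2 or GFP-NEG replicate 1 (0.28, 0.080 and 0.096).

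The 4 keratins and claudins set aside by the choice of genes behaved as follows. CLDN5, the claudin of endothelium, was at 45.7 and 27.3 CPM in GFP-HI and at 420 and 136 CPM in GFP-NEG, a log2FC of -2.93 ± 0.64 (SE) with an adjusted p of 7.0e-05 (0.063 without GFP-HI replicate 2). KRT15, a basal cell keratin, was at 0.725 and 0.644 CPM against 6.83 and 2.08 CPM and did not pass the threshold (log2FC -2.68, adjusted p of 0.067, but 0.031 under DESeq2, 0.021 with GFP-HI thinned and 0.027 without GFP-NEG replicate 2). CLDN18 differed 7.87-fold between the GFP-HI replicates and 11.5-fold between the GFP-NEG replicates, each time with replicate 1 higher, and its log2FC was -0.47 ± 0.57 (SE).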
